A study of Mus musculus with 8 samples.

Results

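The interferon-inducible GTPases considered here are 10 genes, Gbp2, Gbp3, Gbp5, Gbp6, Gbp7, Gbp9, Irgm1, Irgm2, Igtp and Iigp1, found by symbol among the 24060 rows of a read count table for mouse cerebellum. All 10 were present and all 10 passed the filter on low counts, together with 15176 other genes. The genes were chosen by family membership with their bigenic and control read counts already seen, so the difference between the groups is described for them and not offered as a test.

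Whole cerebellum came from 4 bigenic and 4 control mice, one library per mouse. Bigenic mice had a CalExflox allele, from which Cre switches on a pump that exports calcium, and the Aldh1l1-Cre/ERT2 allele, whose Cre is made in astrocytes and needs tamoxifen. Control mice carried CalExflox without Cre, so an effect of the pump and an effect of active Cre cannot be told apart. Expression of the pump was not checked here, and the tissue holds all cerebellar cells, not astrocytes alone. Both groups were given one 75 mg/kg dose of tamoxifen and dissected 5 days later. The sample labels give neither sex nor age. Counted reads ranged from 35208460 to 38293012 per library. In this bulk tissue, fewer cells of a type and less RNA per cell cannot be told apart.

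Interferons bind receptors on the cell surface, and Janus kinases there phosphorylate STAT proteins. STAT dimers bind the gamma-activated site (GAS), and complexes of STAT proteins with IRF9, as well as other IRF factors, bind the interferon-stimulated response element (ISRE). Among the strongest targets are 2 GTPase families. The guanylate-binding proteins (GBPs, here Gbp2, Gbp3, Gbp5, Gbp6, Gbp7 and Gbp9) coat the membranes of intracellular pathogens and promote inflammasome activation. The immunity-related GTPases (IRGs) include effectors such as Iigp1, which disrupts pathogen vacuoles, and the regulators Irgm1, Irgm2 and Igtp (also called Irgm3), which keep the effectors inactive on the cell's own membranes. In the brain, microglia, endothelium and astrocytes can all express these genes, usually at low level without infection.

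The genes lie in a few clusters. In the GRCm38 annotation (the build called mm10), Gbp5, Gbp7, Gbp3 and Gbp2 lie on the plus strand of chromosome 3 between 142493978 and 142638008. Gbp9 and Gbp6 lie on the minus strand of chromosome 5, between 105077630 and 105293698, with Gbp4 and Gbp10 in the same stretch. Igtp and Irgm2 lie on the plus strand of chromosome 11 between 58199556 and 58222782 and share 162 bp of exon. Irgm1 is on the minus strand of chromosome 11 at 48861968 to 48871683, and Iigp1 on the plus strand of chromosome 18 at 60376027 to 60392634.

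Gbp6, Gbp9 and Iigp1 were left out of the promoter search, so its counts do not cover them. Promoter windows (250 bases before to 50 after the start, RefSeq, GRCm38.p6) were taken for the other 7 of the 10 genes. Each was searched on both strands for an ISRE (GAAA, any 2 bases, GAAA, or its reverse complement) and a GAS (TTC, any 3 bases, GAA, which reads the same on both strands). The ISRE letters occurred in all 7 genes, and among all 27025 genes with such a window in 3.99%. The GAS letters occurred in 4 of the 7 (Gbp5, Gbp7, Igtp and Irgm2), against 9.55% of all genes. Both occurred in those 4 genes, against 0.54% of all genes. Related GTPase genes outside the list often held these letters too: of 9 with a window, 5 had an ISRE, 3 a GAS and 3 both. The other 3, Gbp2, Gbp3 and Irgm1, held an ISRE without a GAS, and the alternative start of Gbp3 held neither. A match is a description of these letters and not evidence of binding.

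Stretches of 120 bases directly before the start, on the strand of each gene, are printed for 5 of these promoters. They were chosen because Gbp2 and Gbp7 are the most abundant of the reduced GBPs in reads, Igtp and Irgm2 share an arrangement, and Irgm1 carries the ISRE letters without a difference in level. Capitals mark ISRE and GAS matches.
Gbp2 (chr3:142620543-142620662, plus): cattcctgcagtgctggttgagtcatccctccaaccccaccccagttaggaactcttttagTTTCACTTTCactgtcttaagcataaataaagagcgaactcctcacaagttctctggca
Gbp7 (chr3:142530216-142530335, plus): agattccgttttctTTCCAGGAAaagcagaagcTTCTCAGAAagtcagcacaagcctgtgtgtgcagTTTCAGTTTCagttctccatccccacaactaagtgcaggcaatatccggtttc
Igtp (chr11:58199436-58199555, plus): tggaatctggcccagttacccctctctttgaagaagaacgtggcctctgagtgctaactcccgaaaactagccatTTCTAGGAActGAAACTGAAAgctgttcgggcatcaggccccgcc
Irgm2 (chr11:58214857-58214976, plus): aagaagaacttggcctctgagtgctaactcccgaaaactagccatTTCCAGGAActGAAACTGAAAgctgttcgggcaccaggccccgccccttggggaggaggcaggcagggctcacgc
Irgm1 (chr11:48871421-48871540, minus): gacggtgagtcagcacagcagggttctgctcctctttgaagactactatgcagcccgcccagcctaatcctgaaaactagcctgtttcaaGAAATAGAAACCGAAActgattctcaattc
In Igtp and Irgm2 the GAS stands 2 bases before the ISRE. The same gap of 2 bases was found in Tgtp1 and Tgtp2, a pair of near-identical IRG genes outside the list. In Irgm1 the ISRE letters match at 2 overlapping positions, starting 30 and 24 bases before the start.

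**Figure D1:**
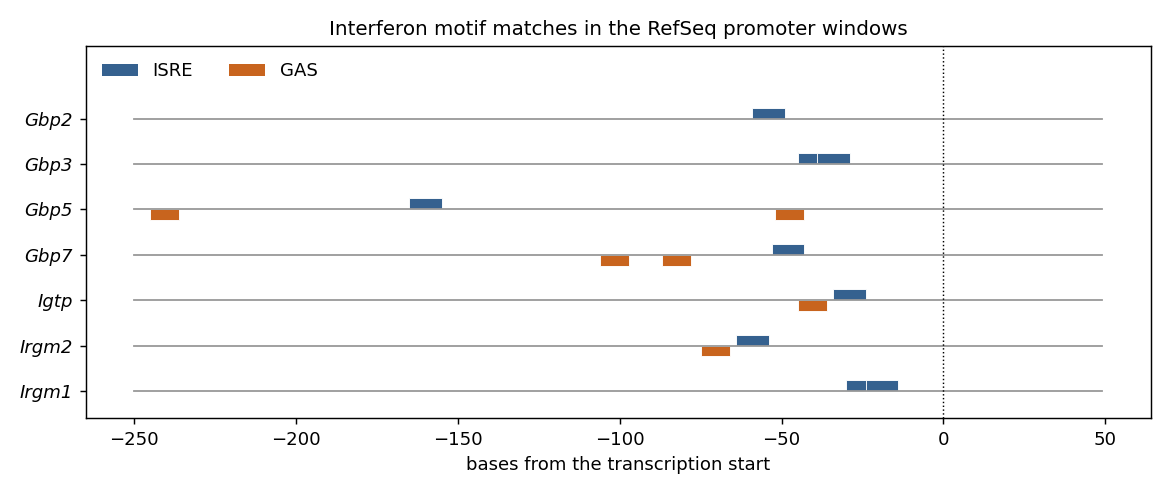
Positions of ISRE (blue) and GAS (orange) matches in the promoter windows of 7 GTPase genes, in bases from the transcription start (dotted line). Every gene shown has an ISRE match, and Gbp5, Gbp7, Igtp and Irgm2 also have a GAS match. The alternative start of Gbp3, which held neither, is not shown.

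Levels between genes were compared as the authors' FPKM, which divides by a gene length. In control cerebellum Irgm1 had the highest FPKM, 3.94 ± 0.57 (SD, n = 4), followed by Gbp2 at 3.23 ± 0.27, and the ranges of these 2 genes over libraries overlapped. Gbp3 (2.43 ± 0.28 FPKM) and Igtp (2.25 ± 0.40) came next, with overlapping ranges, and every library of Gbp2 was above every library of Gbp3. From Igtp down through Gbp7 (1.77 ± 0.21), Gbp9 (1.60 ± 0.11), Iigp1 (1.37 ± 0.24) and Irgm2 (1.25 ± 0.044), the ranges of each neighbouring pair overlapped. Gbp6 (1.05 ± 0.045 FPKM) was below Irgm2 in every library, and Gbp5, a GBP known for promoting NLRP3 inflammasome assembly, was lowest at 0.466 ± 0.13.

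In bigenic cerebellum the order of FPKM differed. Irgm1 was again highest, at 3.46 ± 0.57 FPKM, and Gbp6 was second at 1.34 ± 0.13, above every library of the other 8 genes. Those 8 lay between 0.758 ± 0.18 FPKM for Gbp2 and 0.142 ± 0.041 for Gbp5. The length behind each FPKM is the authors' and is not given in the sources used here.

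**Figure D2:**
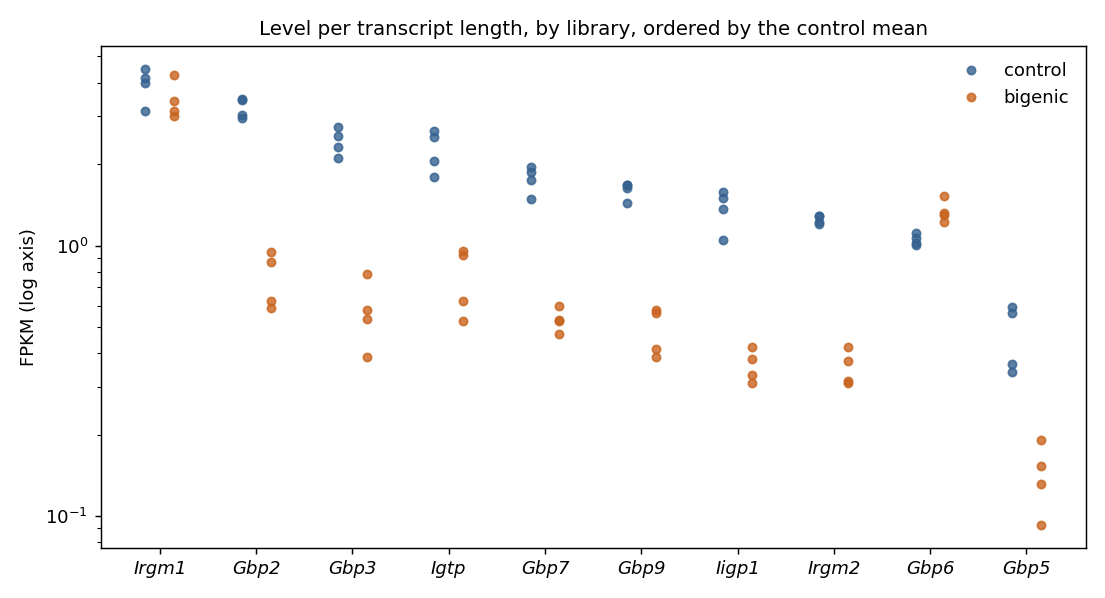
FPKM of the 10 genes on a log axis, one point per library (4 control in blue, 4 bigenic in orange), ordered by the control mean. Irgm1 overlaps between the groups, Gbp6 is higher in bigenic libraries, and the other 8 genes are lower in every bigenic library.

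Between the groups, 8 of the 10 GTPases were lower in bigenic cerebellum, by 2.80-fold (Igtp) to 4.01-fold (Gbp2 and Gbp3), 1 was higher and 1 was at a similar level. The 8 lower genes had no overlap between groups, which 21.4% of the 15186 genes tested also showed in that direction. At an adjusted p under 0.05 (edgeR quasi-likelihood test, Benjamini-Hochberg over all genes tested), 8 were lower, against 22.9% of all genes, and 1 was higher, against 21.4%. In either direction that is 9 of 10, against 44.3% of all genes, and 1 of 10 did not pass, against 55.7%. Gbp6 was the 1 gene above the controls in every bigenic library, as were 19.4% of all genes. The median log2 fold change of the 10 was -1.64, beside -0.00 over all genes tested. These counts describe the 10 genes only. Values below are CPM, reads scaled to a common library size with TMM factors, which adjust for depth and composition. A negative log2 fold change means a lower level in bigenic tissue, and its error is the standard error (SE) of the fit.

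Gbp2, a GBP also known as a marker of reactive astrocytes, was measured at 2.17, 2.41, 1.62 and 1.47 CPM in the bigenic mice, in the order of libraries 1 to 4. The controls, in the same order, were at 7.23, 8.23, 7.18 and 8.17 CPM. All 4 bigenic values lay below the lowest control value. Its log2 fold change was -2.00 ± 0.17 (SE).

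Gbp3 gave 1.74, 1.19, 2.45 and 1.61 CPM in bigenic and 6.07, 7.36, 6.79 and 7.77 CPM in control libraries. The groups were again apart, with the highest bigenic value in library 3 and the lowest control value in library 1. Its log2 fold change was -2.00 ± 0.20 (SE).

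Gbp7, which lies between Gbp5 and Gbp3 in the chromosome 3 cluster, was at 3.42, 2.73, 3.14 and 3.00 CPM in bigenic and at 8.08, 10.7, 9.73 and 10.1 CPM in control libraries (-1.65 ± 0.13, SE). The groups did not overlap. Its bigenic libraries were close together, with an SD of 9.4% of the mean, about what read counting alone gives (9.6%).

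Gbp5 was the thinnest measured, with 10 to 22 reads per bigenic library and 39 to 65 per control library. These correspond to 0.285, 0.595, 0.419 and 0.473 CPM in bigenic and 1.07, 1.00, 1.77 and 1.62 CPM in control libraries. No bigenic value reached the lowest control value. Its log2 fold change was -1.61 ± 0.30 (SE).

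The 2 GBPs of chromosome 5 went opposite ways. Gbp9 was at 1.43, 2.11, 2.21 and 1.53 CPM in bigenic and at 5.05, 5.90, 5.85 and 5.78 CPM in control libraries, with a log2 fold change of -1.63 ± 0.17 (SE). Gbp6 was at 6.70, 5.76, 5.57 and 5.81 CPM in bigenic and at 4.65, 4.49, 4.30 and 4.21 CPM in control libraries, with a log2 fold change of 0.43 ± 0.12 (SE). Every bigenic library was thus below every control library for Gbp9 and above every one for Gbp6.

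The reads of Gbp6 are less certain than those of the other 9 genes. Of the distinct 75-base stretches in its annotated transcripts, 67.3% also occur in transcripts of another gene, and 42.7% in a gene of the count table, chiefly Gbp10. The largest share, 61.7%, was with Gm43302, a same-strand transcript over its exons that was not analysed here. For the other 9 genes the shared part ranged from 0% (Irgm1 and Iigp1) to 11.3% (Gbp7, mostly with Gm43802). How the authors assigned reads that fit several genes is not given in the sources used here, and the part of shared reads in the Gbp6 value was not tested.

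Among the IRGs, the effector Iigp1 was at 1.34, 1.00, 1.26 and 1.06 CPM in bigenic and at 3.17, 4.56, 4.21 and 4.71 CPM in control libraries, a log2 fold change of -1.84 ± 0.19 (SE). The regulator Irgm2 was at 1.51, 1.35, 1.17 and 1.11 CPM in bigenic and at 4.16, 4.41, 4.46 and 4.03 CPM in control libraries (-1.73 ± 0.16, SE). Igtp was at 1.08, 1.92, 2.03 and 1.28 CPM in bigenic and at 4.03, 3.54, 5.29 and 4.86 CPM in control libraries (-1.49 ± 0.23, SE). For these 3 genes every bigenic library was below every control library.

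Irgm1, the third regulator, did not follow Irgm2 and Igtp. It was at 6.82, 7.22, 10.1 and 7.76 CPM in bigenic and at 6.82, 8.61, 9.12 and 9.56 CPM in control libraries. The groups overlapped, and the highest value of all 8 was in a bigenic library. Its log2 fold change of -0.10 ± 0.15 (SE) was within the spread between replicates, which was 18.2% of the mean in bigenic and 14.1% in control libraries. With 239 to 336 reads per bigenic library, read counting alone would give 5.97%.

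**Figure D3:**
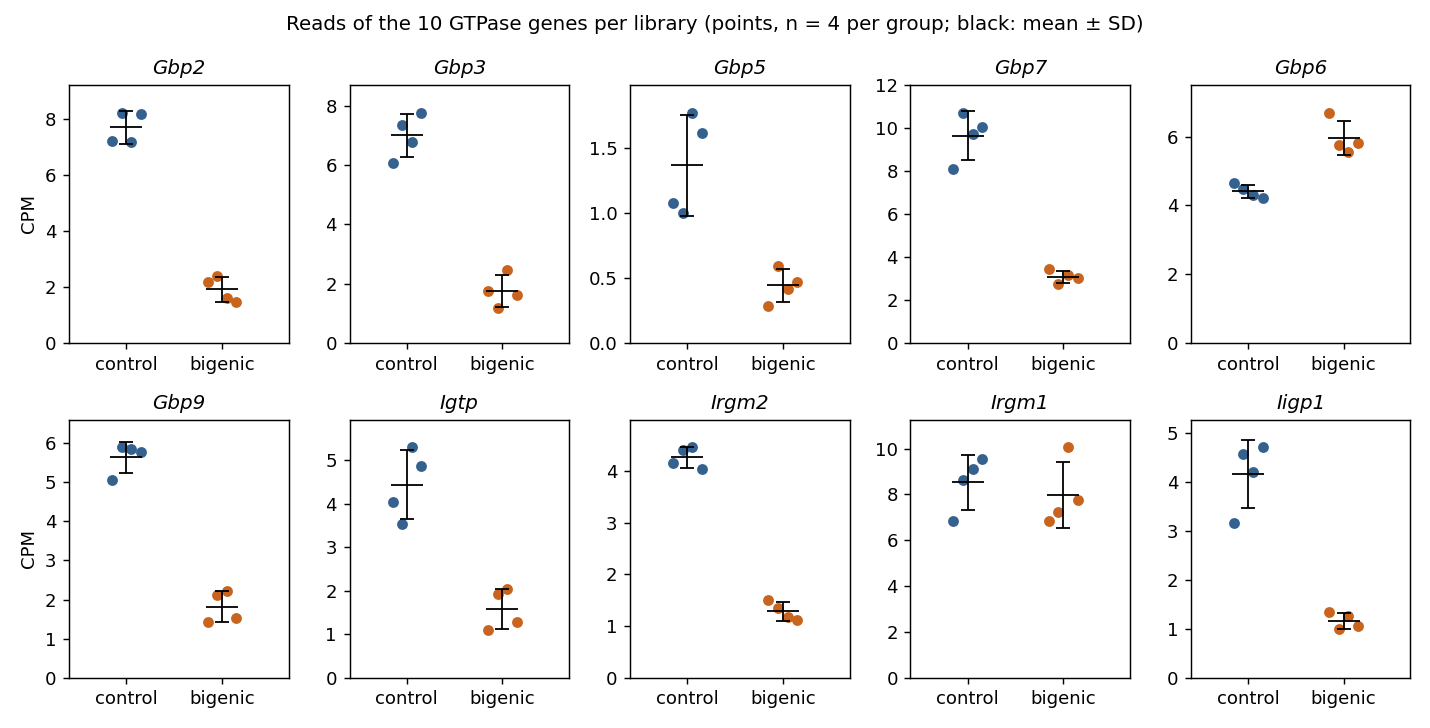
CPM of each of the 10 GTPase genes in 4 control (blue) and 4 bigenic (orange) libraries, with the mean and SD in black and every axis starting at 0. The groups are apart for all genes but Irgm1, and Gbp6 is the only one of the 10 with higher bigenic values.

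Within each group, no library was low or high for all 10 genes. Control library 1 had the lowest control value for 5 of the 10, and control libraries 2, 3 and 4 had the highest for 3 each. Bigenic library 1 had the highest bigenic value for 4 genes and the lowest for 4 others. Summed over the 10 genes, bigenic libraries held 25.1 to 29.9 CPM and control libraries 50.3 to 60.8 CPM, with control library 1 the lowest of the controls.

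To see which genes moved with the GTPases from library to library, group means were removed from log2 CPM, each gene was scaled, and its distance to the mean profile of the 10 was taken over the 8 libraries. The 10 themselves lay 1.61 (Iigp1) to 4.25 (Gbp6) from that mean, beside a median of 3.69 over 13540 other genes with a mean of at least 1 CPM. Because the mean is made from the 10, it lies nearer to them by construction. Their distances therefore cannot show that they moved together. The 10 nearest genes were Lipo1, Chek2, Adk, Krcc1, Pnpt1, Slc16a4, Ttpa, Fam81a, Stk4 and Snx14, at distances of 0.62 to 1.06. Of the 20 nearest, 0 were in a list described below of pathway genes, further GTPases or atlastins, which together held 0.51% of the 13540 genes. Of the 200 nearest, 1 was. At that share hardly any would be expected among 20, so the count cannot decide whether pathway genes moved with the GTPases. Leaving out 1 library kept 1 (without bigenic library 4) to 8 (without control library 2 or 3) of the 10 names among the 20 nearest. The use of ranks kept 2 of the 10 names among the 20 nearest.

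Of 10 tested genes flanking the clusters at 5 loci, 3 were lower, 2 higher and 5 did not pass, shares near those of all genes (22.9%, 21.4% and 55.7%). Beside the chromosome 3 cluster, Pdlim5 was lower (-0.22 ± 0.07, SE; adjusted p = 0.022) and Gtf2b higher (0.46 ± 0.11; adjusted p = 0.0057). Beside Igtp and Irgm2, Mrpl22 (0.32 ± 0.15; adjusted p = 0.096) and Zfp692 (0.08 ± 0.17; adjusted p = 0.72) did not pass. Beside Iigp1, Smim3 was higher (1.07 ± 0.13; adjusted p = 0.00011), while Chsy3 did not pass (-1.02 ± 0.54; adjusted p = 0.15). Zfp951, next to the chromosome 5 cluster, was lower (-0.64 ± 0.16; adjusted p = 0.0085) and Lrrc8b on its other side did not pass (-0.15 ± 0.08; adjusted p = 0.17). Next to Irgm1, Psme2b was lower (-0.33 ± 0.09; adjusted p = 0.013) and Trim7 did not pass (0.09 ± 0.26; adjusted p = 0.81).

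Of 20 further GTPase genes related to the 10, 11 passed the low-count filter, of which 8 fell, 0 rose and 3 did not pass. Their median log2 fold change was -1.44. Of all genes tested, 22.9% fell and 21.4% rose. Among the 8 that fell, 3 are limited by the filter, as described below. Gbp4, in the chromosome 5 cluster, was at 0.513, 0.460, 0.628 and 0.389 CPM in bigenic and at 1.85, 1.90, 2.38 and 2.07 CPM in control libraries (-2.04 ± 0.22, SE; adjusted p = 5.7e-05). The T cell-specific GTPase genes Tgtp1 (-2.52 ± 0.32; adjusted p = 0.00014) and Tgtp2 (-2.61 ± 0.40; adjusted p = 0.00041) fell, but 77.2% and 81.4% of their 75-base stretches occur in another gene, mostly each other. The IRG genes Ifi47 (-1.93 ± 0.29; adjusted p = 0.0004) and Gm4951 (-2.04 ± 0.32; adjusted p = 0.0005) fell as well.

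The other 3 calls were thinner. Gbp10 (-1.25 ± 0.38; adjusted p = 0.019), Gm12250 (-1.40 ± 0.49; adjusted p = 0.036) and 9930111J21Rik1 (-1.44 ± 0.51; adjusted p = 0.038) had 23 to 73 reads per group and overlapping groups. For Gbp10 and 9930111J21Rik1, 77.75% and 75.95% of the 75-base stretches occur in another gene. Gbp10 lost its call without control library 3 (adjusted p = 0.051). Gm12250 lost it without bigenic library 1 or 4 or control library 1, 2 or 4 (adjusted p from 0.076 to 0.098), and 9930111J21Rik1 without any 1 library but bigenic library 2 or control library 4 (adjusted p from 0.069 to 0.096). Gbp11 (-1.13 ± 0.46; adjusted p = 0.064, but 0.047 without bigenic library 2 and 0.027 without control library 3), Irgq, an IRG relative not known to be interferon-inducible (-0.10 ± 0.10; adjusted p = 0.48), and the dynamin-like antiviral gene Mx2 (0.05 ± 0.30; adjusted p = 0.90) did not pass. With the Ttr covariate, described with the choroid plexus below, 5 of the 11 fell.

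Another 9 of these genes had too few reads to be tested. Gbp8 had 0, 3, 0 and 1 reads in bigenic and 7, 6, 6 and 9 in control libraries. Gvin1 and Gm4070 had 0 reads in all 8 libraries, which for assigned reads allows up to 0.0898 CPM in the shallowest library (3 reads, counting error only). Of their 75-base stretches, 98.33% and 96.72% occur in another gene, mostly each other. Reads that fit several genes may not have been counted, so their level is not bounded by this value. Atlastins, the relatives of GBPs that fuse endoplasmic reticulum membranes and are not interferon-induced, differed little: Atl1 fell (-0.24 ± 0.09; adjusted p = 0.043), while Atl2 (-0.03 ± 0.07; adjusted p = 0.69) and Atl3 (-0.03 ± 0.08; adjusted p = 0.79) did not pass. The call of Atl1 was lost without bigenic library 1 or 2 or control library 2, 3 or 4 (adjusted p from 0.064 to 0.12).

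**Figure D4:**
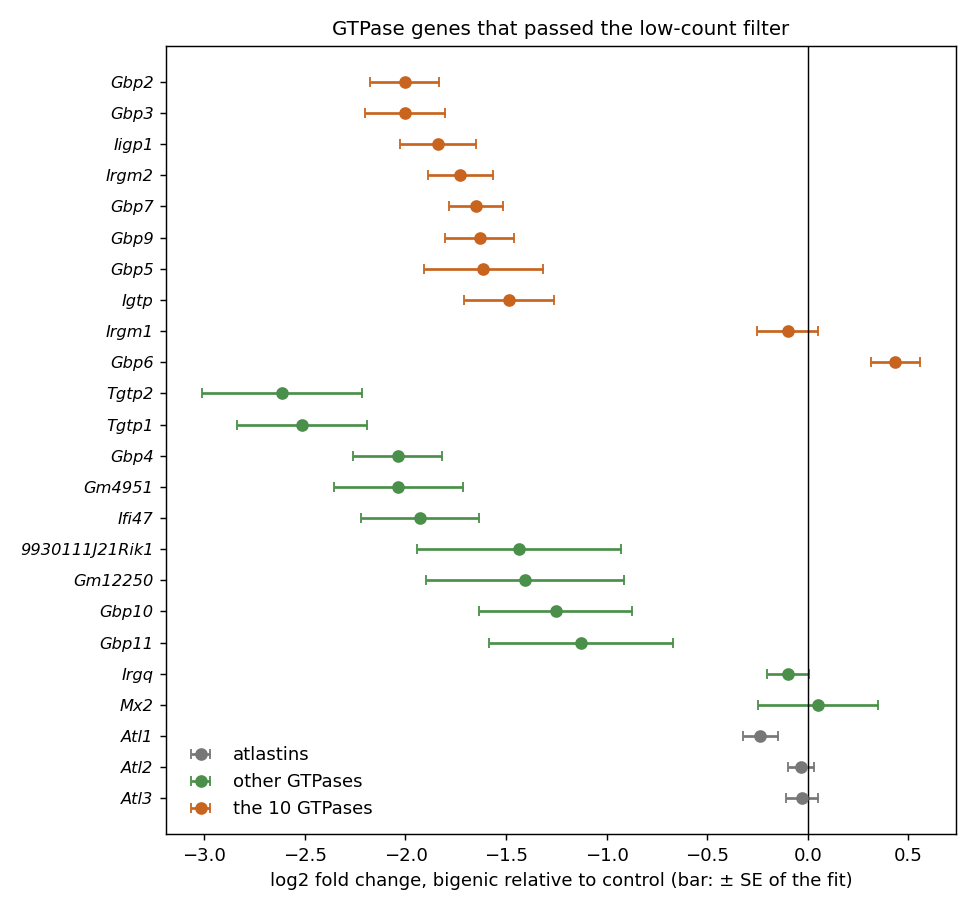
Log2 fold change of the 10 GTPases (orange), the 11 tested relatives (green) and the 3 atlastins (grey), with the SE of the fit as bars. Irgm1, Irgq, Mx2 and the atlastins lie near 0, Gbp6 lies above 0, and the remaining genes lie below -1.

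Upstream of the GTPases, interferon transcripts were close to absent. Of 20 interferon genes, 7 had 0 reads in every library and the most for 1 gene in 1 library was 4 reads. No single gene had enough reads for the test across genes. Summed over the 20, there were 7 to 12 reads per bigenic library and 1 to 6 per control library, so every bigenic sum lay above every control sum. In CPM the sums were 0.200 to 0.359 in bigenic and 0.0269 to 0.166 in control libraries. Any such separation of 4 from 4 gives a two-sided exact permutation p of 0.0286, so that p, computed after the sums were seen, adds nothing. Among all genes tested, 19.4% were likewise above the controls in every bigenic library. Interferon alpha genes are near-identical copies, so reads could be shared among them, and the sums rest on a few reads each. Ifng, whose product is the main inducer of GBPs and IRGs, had 0, 0, 3 and 2 reads in bigenic and 0, 3, 1 and 1 reads in control libraries.

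Of 5 interferon receptor genes tested, 1 fell and 0 rose (median -0.13), a share near the 22.9% of all genes that fell. Both chains of the interferon gamma receptor were well measured and did not pass: Ifngr1 averaged 25.3 ± 2.15 CPM over bigenic libraries against 22.6 ± 1.02 CPM over controls (0.16 ± 0.09; adjusted p = 0.16), and Ifngr2 averaged 44.1 ± 2.34 and 48.6 ± 2.33 CPM (-0.14 ± 0.07; adjusted p = 0.14; SD, n = 4). Ifngr2 passed as lower with library size alone (-0.23; adjusted p = 0.028). Ifnar2, of the type I receptor, did not pass (-0.13 ± 0.13; adjusted p = 0.40). Il10rb, a chain shared by the receptors of interferon lambda and interleukin 10, fell (-1.30 ± 0.13; adjusted p = 3.5e-05), and it shares exon sequence with the same-strand gene Gm21970.

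Of 13 genes tested for Janus kinases, STATs and interferon regulatory factors, 7 fell and 0 rose (median -0.60). Over all genes tested, 22.9% fell and 21.4% rose. Irf1, an interferon-induced factor that acts on GBP promoters, was at 2.82, 1.57, 2.48 and 2.98 CPM in bigenic and at 5.05, 5.23, 4.38 and 4.71 CPM in control libraries (-0.98 ± 0.19; adjusted p = 0.0019). Irf7 (-1.37 ± 0.18; adjusted p = 0.00018), Irf3 (-1.11 ± 0.16; adjusted p = 0.0003) and Irf9 (-0.66 ± 0.11; adjusted p = 0.00074) fell too. These 4 IRF genes overlap exons of a neighbour, so reads could be shared. Among genes named with a call below, the same holds for Usp18, Ptpn6, Parp14, Rtp4, Psmb8, Psmb9, Tapbp, Pycard, Map1lc3b and Gabarapl1. It also holds for Gbp4, Gbp10, Tgtp1, Ifi47, 9930111J21Rik1 and Atl1 above.

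Of 8 inhibitors of the pathway, 3 fell and 2 rose (median -0.06), against 22.9% and 21.4% of all genes tested. Usp18, which blocks type I interferon signalling and is itself interferon-induced, fell (-1.56 ± 0.24; adjusted p = 0.00042), as did the phosphatase gene Ptpn6 (-0.73 ± 0.17; adjusted p = 0.0054). Pias1, an inhibitor of STAT binding to DNA, rose (0.45 ± 0.09; adjusted p = 0.0021), and the cytokine signalling suppressor Socs3 rose (0.93 ± 0.25; adjusted p = 0.011). Socs1, the main feedback inhibitor of interferon gamma, was at 0.656, 0.108, 0.180 and 0.0556 CPM in bigenic and at 0.698, 0.744, 0.527 and 0.797 CPM in control libraries (-1.47 ± 0.53; adjusted p = 0.043). Bigenic library 1 lay within the control range, and the call was lost without any 1 of 7 libraries (adjusted p from 0.055 to 0.10), all but bigenic library 1. Socs3 lost its call without control libraries 2 and 3 (0.62; adjusted p = 0.12).

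Other interferon targets were mostly lower, beside 22.9% lower and 21.4% higher among all genes tested. Of 21 antiviral genes tested, 15 fell and 0 rose (median -1.36), with Ifi44 (-3.02 ± 0.25; adjusted p = 1.2e-05), Parp14 (-1.59 ± 0.17; adjusted p = 5.4e-05), Oasl2 (-2.32 ± 0.26; adjusted p = 7.1e-05) and Rtp4 (-1.80 ± 0.23; adjusted p = 0.00016) at the smallest p. Of 15 genes of antigen presentation and other interferon gamma targets, 9 fell and 2 rose (median -0.46). The immunoproteasome genes Psmb8 (-1.07 ± 0.17; adjusted p = 0.00054) and Psmb9 (-1.45 ± 0.27; adjusted p = 0.0013) fell, and the class I heavy chain gene H2-D1 (0.39 ± 0.09; adjusted p = 0.0037) and the peptide-loading gene Tapbp (0.38 ± 0.09; adjusted p = 0.0059) rose. Tapbp lost its call without control libraries 2 and 3 (adjusted p = 0.06).

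Of 7 inflammasome genes tested, which act downstream of GBPs, 2 fell, 0 rose and 5 did not pass (median -0.30), a share near that of all genes (22.9% lower, 55.7% not past the threshold). The 2 were Casp1 (-1.01 ± 0.16; adjusted p = 0.00044) and the adaptor gene Pycard (-1.46 ± 0.26; adjusted p = 0.0011). Gsdmd, the pore protein (-0.55 ± 0.24; adjusted p = 0.088), and Nlrp3 (0.69 ± 0.33; adjusted p = 0.11) did not pass. Of 10 genes of the Atg8 conjugation system, which directs GBPs and IRGs to pathogen vacuoles, 5 rose and 1 fell (median 0.11). The shares over all genes were 21.4% and 22.9%. Map1lc3b (0.46 ± 0.07; adjusted p = 0.00048), Atg3 (0.39 ± 0.12; adjusted p = 0.023) and Gabarapl1 (0.27 ± 0.08; adjusted p = 0.019) rose, and Atg12 fell (-0.37 ± 0.07; adjusted p = 0.0023). Atg3 and Gabarapl1 lost their calls with library size alone (adjusted p = 0.052 and adjusted p = 0.077). Atg3 also lost it without control library 1, 2 or 4 (adjusted p from 0.052 to 0.062), and Gabarapl1 without bigenic library 4 (adjusted p = 0.056) or control library 2 (adjusted p = 0.06).

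Over all of these pathway lists, leaving out the GTPases, 38 of 79 tested genes fell and 9 rose. Without control libraries 2 and 3, which stand apart in choroid plexus markers, these counts were 26 and 3. With log Ttr level as a covariate of each library they were 21 and 2. Calls over all genes tested fell as well in these settings, from 22.9% lower to 11.4% without the 2 libraries and to 11% with the covariate. The share called higher went from 21.4% to 10.4% and 8.38% in the same order. Among the genes named above, Pias1, Ptpn6, Socs1, Socs3, Tapbp, Atg3, Atg12 and Gabarapl1 lost their calls with that covariate and kept their direction, with log2 fold changes of 0.43, -0.68, -1.57, 0.83, 0.47, 0.46, -0.36 and 0.18 in this order.

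**Figure D5:**
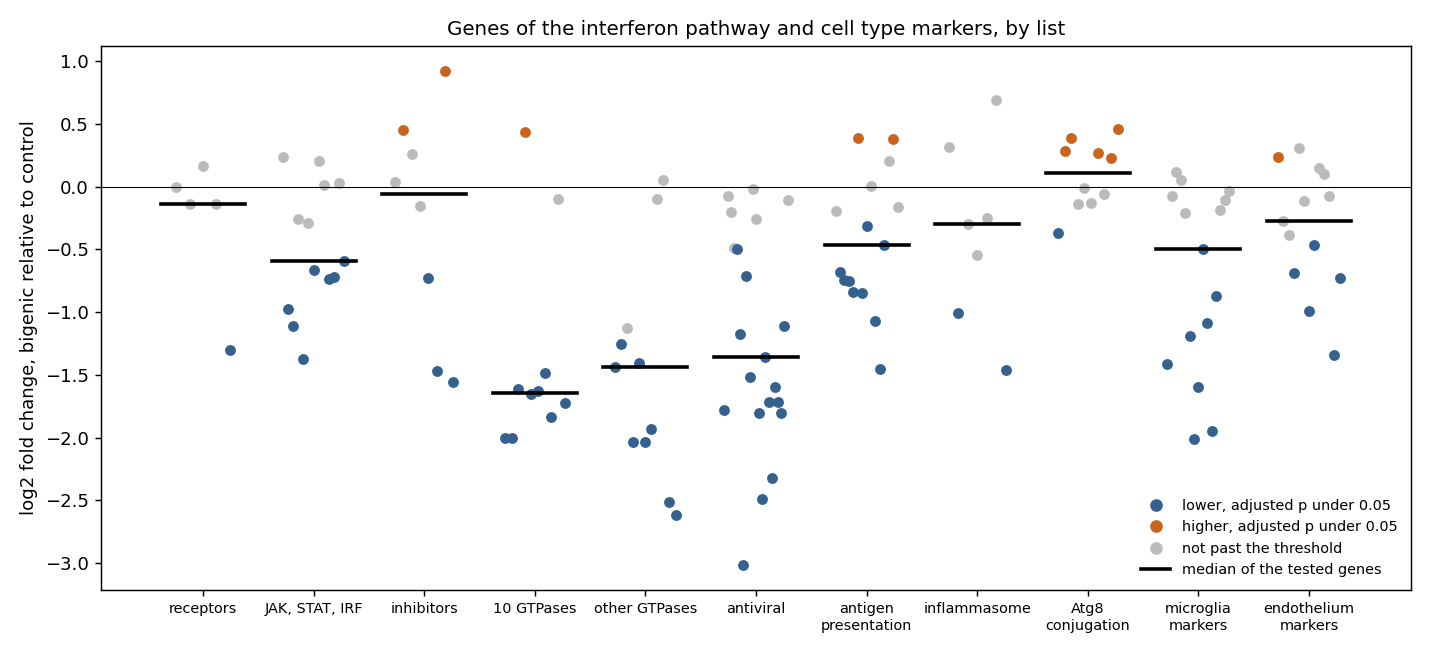
Log2 fold change of each tested gene by list, blue where lower and orange where higher at an adjusted p under 0.05, grey otherwise, with the median as a black bar. The 10 GTPases have a median of -1.64, against -1.36 for antiviral genes, -0.49 for microglia markers and -0.27 for endothelium markers.

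Markers of other cell types were set beside these values, with 22.9% of all genes tested lower and 21.4% higher. Of 15 microglia markers 8 fell and 0 rose (median -0.49), and their summed level was 156 to 188 CPM in bigenic and 214 to 256 CPM in control libraries. The sum was lower in 4 of 4 bigenic libraries than in any control (two-sided exact permutation p = 0.0286, which is as small as 4 against 4 permits; adjusted p = 0.086 over 9 lists). Of 13 endothelium markers 5 fell and 1 rose (median -0.27), with sums of 295 to 310 and 326 to 362 CPM and the same p-values. Lymphocyte markers summed to 0.622 to 0.834 CPM in bigenic and 0.776 to 1.23 CPM in control libraries, and none of the 15 had enough reads to be tested. Of 7 monocyte and neutrophil markers tested 4 fell and 0 rose (median -0.66), while their sums, mostly Coro1a, overlapped between groups at 65.6 to 101 and 68.2 to 79.4 CPM. Of 7 border macrophage markers 4 fell and 1 rose (median -0.53), with overlapping sums of 17.7 to 28.4 and 25.9 to 29.6 CPM. Of 11 astrocyte markers 6 rose and 1 fell (median 0.25), with sums of 11851 to 13519 and 9606 to 10038 CPM. This sum was higher in every bigenic library than in any control, with the same p-values as for microglia. The part of microglia, other myeloid cells, endothelium or astrocytes in the GTPase values was not tested.

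Choroid plexus markers, foremost Ttr, were at 363, 2566 and 3210 CPM in control libraries 1, 2 and 3, against 46.3 CPM in control library 4 and 48.5 to 55.8 CPM in bigenic libraries. Control library 4 had the highest summed level of the 10 GTPases, 60.8 CPM. Without control libraries 2 and 3, 8 of the 10 were again lower past the threshold, with a median log2 fold change of -1.59. Gbp6 was then no longer called (0.43; adjusted p = 0.11), nor was it with Ttr as a covariate (0.49; adjusted p = 0.10), where the 8 lower genes passed and the median was -1.63.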

How the data were processed

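The authors deposited whole-number read counts per gene, not normalised, and FPKM. STAR, HTSeq and the mm10 build are named in the submitters' processing notes, with versions and strand setting not given in the sources used here. The deposited FPKM equal count divided by gene length and column total, checked on the values. The series design and the sample protocols name different extraction kits, library kits and instruments. Counts were fitted in R 4.3.3 with edgeR 4.0.16: filterByExpr by group, TMM, robust quasi-likelihood F test of bigenic against control over all 8 libraries, Benjamini-Hochberg over 15186 genes. The fit was tested on simulated data in which few genes changed, evenly up and down. In the real contrast 44.3% of the genes tested were called, a setting the simulation does not cover. Alternatives were DESeq2 1.42.0, limma 3.58.1 on log2(FPKM + 1) or log2(FPKM + 0.1), other scalings, no filter, each library left out, control libraries 2 and 3 left out, log Ttr as covariate and a replicate block. Striatum was not analysed here. The SE is the log2 fold change divided by the root of F. The labels give each library its own mouse.

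The 10 genes and all lists were chosen with earlier results of these data known. Named genes are the 10, their tested relatives, up to 4 genes of each pathway list with the smallest p, the genes Irf1, Ifngr1, Ifngr2 and Socs1, the 10 nearest by within-group pattern, and the nearest tested unlisted gene on each side of a cluster. One further gene of this rule is not reported here. Coordinates and overlaps are from GENCODE M21 (GRCm38). Stretches of 75 bases, the read length in the series design, were compared between its transcripts.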

Additional observations from a re-analysis of the deposited data

Results flagged for a closer look

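Gbp9 in control libraries was singled out because 1 sample stood far from the others: control library 1 was at 5.05 CPM and the other 3 at 5.78 to 5.90 CPM, so that the gap to the nearest was 0.86 of the whole range. Of 20 gene and group combinations examined this way it was the only one, and chance gives about 1 in 20. The log2 fold change of Gbp9 was between -1.74 and -1.53 when any 1 library was left out.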

How the results depend on the processing

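Over 18 alternative settings, 176 of 180 log2 fold changes of the 10 GTPases kept their direction and their side of the threshold, and 0 changed sign. The other 4 were Gbp6, which was not called without control libraries 2 and 3, with the Ttr covariate, on log2(FPKM + 0.1) (0.32; adjusted p = 0.057) and on log2(FPKM + 1) without a filter (0.19; adjusted p = 0.063). The count of lower genes was 8 in every one of these settings. The median over all 10 was -0.80 on log2(FPKM + 1), with or without the filter, a scale that shrinks differences of low genes. It was between -1.73 and -1.62 when 1 library was left out. Of the other GTPases 5 fell with the Ttr covariate, and between 6 and 9 when 1 library was left out. Of the pathway genes 21 fell and 2 rose with the Ttr covariate, and 3 rose without control libraries 2 and 3. With library size alone, on log2(FPKM + 1) with and without the filter and on log2(FPKM + 0.1), 5 rose; leaving out 1 library gave 5 to 9, with 5 without control library 2. The cause was not tested. Of the 20 genes nearest in pattern, 1 was in a pathway list with ranks, and 0 to 1 when 1 library was left out. The summed cerebellar neuron markers of bigenic relative to control tissue gave a ratio of 1.04, and 0.98 with library size alone, neither past the threshold. With replicate number as a block, 38 pathway genes fell and 11 rose, and 8 of the 10 GTPases were lower with a median of -1.65. Libraries with the same number correlated in their deviations at 0.024 to 0.33. Bigenic libraries 1, 3 and 4 correlated best with the control of their own number, and bigenic library 2 with control library 1. The labels state no pairing of mice, so the main fit did not use the numbers. Among the 10 GTPases depth limits Gbp5 most, and among their relatives the untested genes and Gbp10, Gm12250 and 9930111J21Rik1.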
